A study of Mus musculus with 2 samples.

Results

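The strongest Tbx3 sites, each with few input tags in its windows, were 235 regions of the mouse genome, out of 1147 regions enriched in the whole experiment. A site was a run of overlapping or touching 300 bp windows with 11 or more Tbx3 ChIP tags, fewer than 10 input tags and at least 12 times as many ChIP tags as a local rate. As local rate served the ChIP average over the genome or the scaled input rate in 1, 5 or 10 kb around the window, whichever was highest. One X-chromosome region, from 102389201 to 102390200, passed but was left out by the rule. It held 216 ChIP tags and 3 input tags. Without the limit on input tags the same 235 sites were found, so that limit removed none. Of 20081495 windows with a tag in either library, 565 (0.00281%) passed. The tag counts chose the sites, so counts and enrichments are given as a description, and 1 library per group leaves no spread between cultures.

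Tbx3 is a T-box transcription factor, a protein that binds DNA through a conserved T-box domain. In mouse embryonic stem cells, which can renew themselves and give rise to all tissues of the embryo, Tbx3 is known as part of the network that holds the undifferentiated state. In chromatin immunoprecipitation followed by sequencing (ChIP-seq), DNA fragments bound by the protein are pulled down and each is read from the 5′ end of one of its strands, so a point of binding shows as plus-strand tags on its left and minus-strand tags on its right.

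The 2 libraries were 1 Tbx3 ChIP library and 1 library of input, sheared chromatin that went into sequencing without a pull-down. Both groups were untreated embryonic stem cells. Per the labels' protocols, the lines D3 and R1 were grown on inactivated mouse embryonic fibroblasts with leukaemia inhibitory factor, so feeder cells may have contributed chromatin, and no label says which line gave which library. On chromosomes 1 to 19 and X the ChIP library held 6881110 tags and the input 9982870 distinct tags, averages of 0.853 and 1.24 tags per 300 bp. Positions are in build mm8. No genome or annotation of that build was used, so genes and bases at the sites were not analysed here.

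The sites ranged from strong to just past the rule. In the top window, the 300 bp window of smallest Poisson p in a site, ChIP tags ran from 11 to 79 with a median of 20 (interquartile range 16 to 27). Input tags in the same windows ran from 0 to 7 with a median of 2, and 40 of the 235 windows held no input tag. The input average was 1.24 tags per 300 bp, so few input tags does not mean less input than average. A window with 0 input tags could still hold a low input level, since a count of 0 allows up to 3. Enrichment over the local rate had a median of 16.0 (interquartile range 13.7 to 20.9). It was at least 20 in 65 sites, from 15 to 20 in 74 and under 15 in 96. The sites covered 102.9 kb in all, with a median width of 400 bp. They held 6062 ChIP tags, 0.0881% of the library (95% exact binomial interval 0.0859% to 0.0903%). Input gave 559 tags in the same regions, 0.00560% (0.00514% to 0.00608%).

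**Figure D1:**
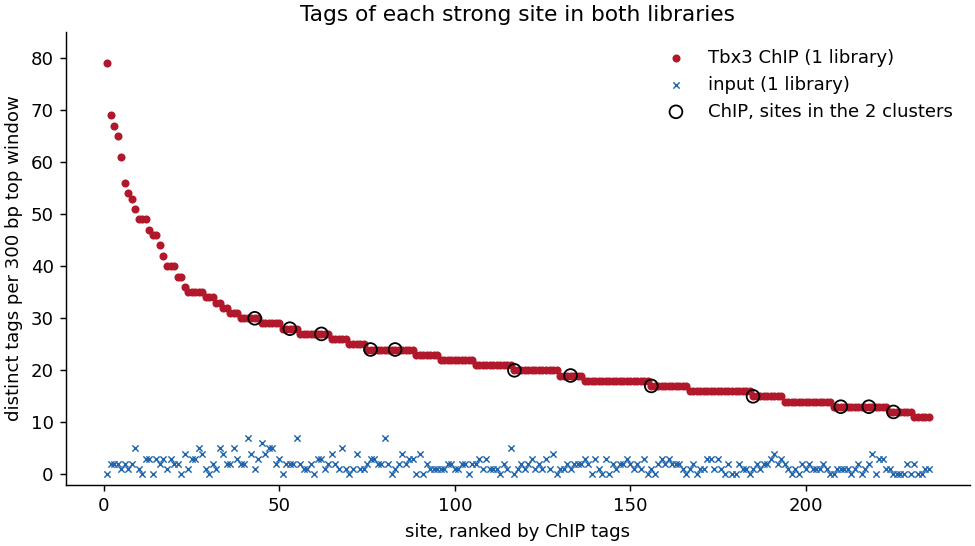
Distinct tags in the 300 bp top window of each of the 235 sites (y axis), ranked by ChIP tags (x axis), for the Tbx3 ChIP library (red points) and the input library (blue crosses); black rings mark the 12 sites of the 2 clusters described in the text. ChIP tags fall from 79 to 11 along the ranking while input stays between 0 and 7.

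The 24 sites with most tags lay on 14 chromosomes, 5 of them on chromosome 2. The first, on chromosome 2 from 44347201 to 44347900, held 79 ChIP tags, 34 plus-strand and 45 minus-strand, and 0 input tags. Its enrichment was 59.0 (95% exact Poisson interval 46.7 to 73.6, with the local rate taken as fixed). The site on chromosome 11 from 66782601 to 66783200 held 69 ChIP tags, 32 plus and 37 minus, and 2 input tags. These sites were thus carried by both strands and by few input tags. On chromosome 18, from 65247701 to 65248400, there were 67 ChIP tags, 42 plus and 25 minus, against 2 input tags. A further site of chromosome 2, from 120961701 to 120962500, held 65 ChIP tags, 30 plus and 35 minus, against 2. Chromosome 17 from 35113501 to 35114200 held 61, 35 plus and 26 minus, against 1. Each of these 5 sites had at most 2 input tags. Their enrichment intervals overlapped, which alone does not settle their order, and the order was not tested.

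Several sites with many tags had a high local rate, set by input within 1 or 5 kb. Chromosome 8 from 60624901 to 60625400 held 47 ChIP and 3 input tags, but its local rate of 2.82 tags gave an enrichment of 16.7 (12.2 to 22.2). Chromosome 16 from 12681801 to 12682200 held 36 ChIP and 4 input tags with an enrichment of 17.4 (12.2 to 24.1). Chromosome 3 from 67591601 to 67592100 and chromosome 14 from 54626001 to 54626500 held 40 ChIP tags each, against 3 and 2 input tags, and both had an enrichment of 19.3 (13.8 to 26.3). With a local rate from 10 kb and the genome-wide rate only, those 4 sites of lower enrichment stood at 39.6, 29.3, 33.1 and 30.1 in the order given, over 1.5 times higher, so their low values depend on the short spans. In the opposite direction, chromosome 3 from 28063501 to 28064100 held 38 ChIP tags, and its low local rate of 0.860 gave an enrichment of 44.2 (31.3 to 60.7). Ranking by tags and ranking by enrichment therefore gave different orders. Across the 24, ChIP tags ran from 35 to 79, input tags from 0 to 5, and each strand contributed at least 14 tags. At the last place 5 sites tied with 35 tags and the first in chromosome order was taken; the other four had 12 or more tags on each strand and enrichments of 12.4 to 28.8.

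At the lower edge, counting error was wide. The 5 sites just inside it had enrichments of 12.02 to 12.16. Among them, chromosome 1 from 12729901 to 12730300 held 16 ChIP tags and 1 input tag, and chromosome 11 from 102419601 to 102419900 held 25 and 1. The other three, on chromosomes 4 (from 135419001), 5 (from 89759901) and 9 (from 119840001), held 16 ChIP and 3 input tags each. The 5 regions just outside had enrichments of 11.97 to 11.98. Those on chromosomes 4 (from 129604801), 7 (from 73273601) and 14 (from 48369701) held 13 ChIP tags each, and those on chromosomes 6 (from 122590101) and 11 (from 62031301) held 17 and 18. In all, 43 further regions lay between 11 and 12 times the local rate.

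Tags that had not been used to choose a site carried the enrichment too. To obtain tags free of the choice, the rule was applied to plus-strand tags alone (6 or more, 12 times a plus-strand rate), and minus-strand tags were then counted in the same windows. Of 585 sites chosen in this way, with 5180 plus-strand tags, the minus strand held 2707 tags where the local rate gave 315, an enrichment of 8.59 (95% exact Poisson interval 8.26 to 8.91). On the plus strand, which chose them, the enrichment was 16.4. Both strands came from 1 library, so the interval covers counting error only.

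The minus-strand level rose with the plus-strand count. In the 339 sites with 6 or 7 plus tags the minus strand was enriched 2.90-fold (2.64 to 3.19), and 136 of these sites (40.1%) had no minus tag. With 8 to 10 plus tags (123 sites) it was 10.1-fold (9.41 to 10.9), and with 11 to 19 (98 sites) 14.3-fold (13.4 to 15.2). In the 25 sites with 20 or more plus tags it was 28.7-fold (26.3 to 31.3), against 34.9-fold on the plus strand, and none of these lacked minus tags. The strongest sites thus lost little on the strand not used, and the weakest lost most of their enrichment. Of the 235 strong sites, 193 overlapped a site chosen on plus tags and 200 one chosen on minus tags. The strong sites were chosen on both strands together, so that overlap was favoured by the choice. Most sites chosen on plus tags were not strong sites. Of all 585, 193 overlapped a strong site, and of the 339 with 6 or 7 plus tags, 20 did.

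Pooled over the sites, tags were shared evenly between strands. Over all 235 top windows there were 2724 plus and 2763 minus tags, a plus share of 49.6% (95% exact binomial interval 48.3% to 51.0%), and the library-wide share was 49.98%. By a two-sided exact binomial test, adjusted by Benjamini-Hochberg over 1093 enriched regions with few input tags, 0 of the 235 sites departed from that share, and 0 of all 1093 did (0.00%). At an unadjusted p under 0.05 there were 14 of the 235, and 43 of the 858 other regions among the 1093. The most uneven of the 14 included chromosome 12 from 100175201 to 100175500, with 1 plus and 13 minus tags (adjusted p = 0.50, exact binomial test), and chromosome 11 from 96548701, with 17 plus and 3 minus tags (adjusted p = 0.50, exact binomial test). At fewer than 16 tags even a window with all tags on 1 strand could not pass on its own, which leaves the test without information for 51 of the 235 sites.

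Minus-strand tags lay to the right of plus-strand tags at nearly every site, by about the length of a fragment. This strand offset is the distance from the median 5′ end of plus-strand tags to that of minus-strand tags, with unmoved tags within 300 bp of the top window's centre. It could be read in 234 sites with 3 or more tags on each strand. Its median was 128 bp (95% order-statistic interval 121.5 to 138 bp), and it was above 0 in 228 of 234 (97.4%, exact binomial interval 94.5% to 99.1%). The rule moved tags by 62 bp, which by itself favours an offset of about a fragment's length. When sites were instead chosen on unmoved tags, which favours offsets near 0, 195 were found and the median was 122.5 bp (113.5 to 129 bp), with 184 of 194 above 0. In the 858 weaker regions, which were enriched at an adjusted p under 0.05 (one-sided exact Poisson test with Benjamini-Hochberg adjustment, 0.0121% of windows) but were not strong sites, the median was 121 bp (114 to 127 bp) and 93.5% were above 0 (91.5% to 95.1%).

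The offset was least spread in the sites with most tags, where the medians of each strand rest on more tags. In the 65 sites enriched at least 20-fold it ran from 9 to 228.5 bp with a median of 132 bp (interquartile range 108 to 155.5 bp), and all 65 were above 0. In the 95 sites under 15-fold with an offset it ran from -16 to 255 bp with a median of 124 bp (93.3 to 160.75 bp). The 24 sites with most tags had offsets of 73 to 175 bp, with a median of 147.75 bp. Offsets under 60 bp occurred in 29 of the 234 sites (12.4%, 8.46% to 17.3%). The lowest 3 were chromosome 13 from 40744601 (-32 bp, 22 ChIP tags), chromosome 1 from 124434901 (-16 bp, 16 tags of which 14 plus) and chromosome 3 from 137484801 (-16 bp, 13 tags). The highest 3 were chromosome X from 7026901 (255 bp, 12 tags), chromosome 16 from 90326101 (245 bp, 21 tags) and chromosome 15 from 39476701 (244.5 bp, 12 tags). Apart from that on chromosome 13 and that on chromosome 16, these extremes rested on fewer than 17 tags.

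**Figure D2:**
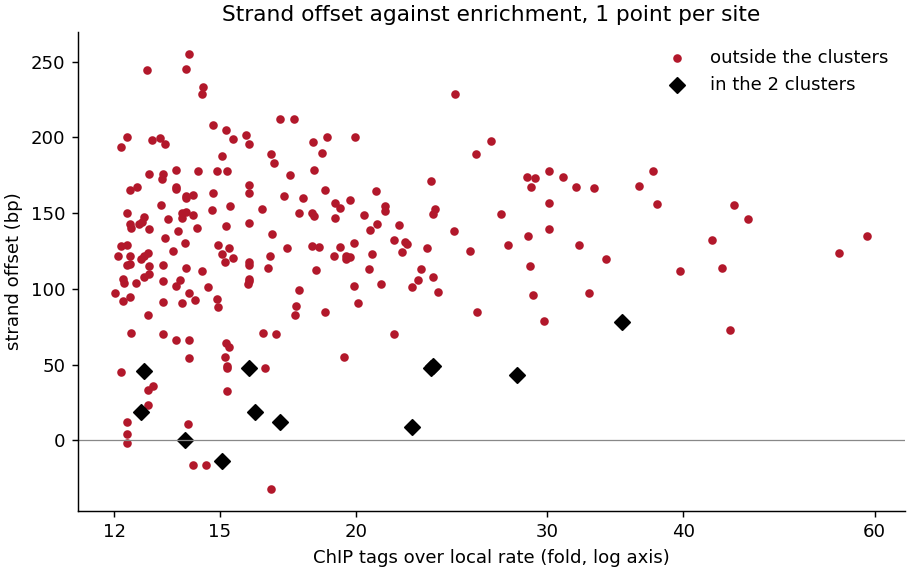
Strand offset in bp (y axis) against enrichment over the local rate (x axis, log scale), 1 point per site for the 234 sites with an offset; red points are sites outside the 2 clusters and black diamonds are the 12 sites in them. Red points centre near 130 bp and tighten to the right, while the diamonds lie between -13.5 and 78.5 bp.

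Of the 29 sites with small offsets, 11 belonged to 2 clusters of closely spaced sites. These clusters were noticed after the values were seen and were defined as runs of 6 or more strong sites with gaps under 50 kb. Spacing played no part in the rule. Offset entered it indirectly, since each strand's tags were shifted by 62 bp before they were counted. One lay on chromosome 2 from 163238601 to 163261700 (23.1 kb) and one on chromosome 10 from 42251601 to 42266900 (15.3 kb), and each held 6 strong sites. In the 12 sites the offset ran from -13.5 to 78.5 bp with a median of 31 bp (9 to 47.5 bp), close to the 35 bp length of an input tag. In the 223 sites outside the clusters the median was 129.75 bp (124 to 140 bp), and 18 of 222 were under 60 bp (8.11%, 4.88% to 12.5%). The 12 sites were found by the same tags, and no replicate library exists to check them. They lie in 2 clusters, so the interval of their median treats neighbours as independent.

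On chromosome 10 the first site, from 42251601 to 42252100, held 24 ChIP tags and 1 input tag with an offset of 9 bp. The next, from 42255801 to 42256600, held 27 and 3 in its top window with an offset of 47.5 bp. It held separate maxima of 8 and 17 ChIP tags per 100 bp with a bin of 0 between them, and a further maximum of 13 lay 200 bp beyond its end, outside the site. The third, from 42259601 to 42260000, held 19 and 1 with 3 plus against 16 minus tags (adjusted p = 0.66, exact binomial test). The remaining ones began at 42261001 (28 ChIP and 2 input tags), 42262601 (13 and 2) and 42266401 (30 and 1). The last had the cluster's highest enrichment, 35.2, and its largest offset, 78.5 bp. The 6 sites were thus blocks of under 1 kb, 1.0 to 3.7 kb apart.

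On chromosome 2 the sites began at 163238601 (13 ChIP tags and 1 input tag), 163242901 (20 and 0), 163250301 (12 and 0), 163255501 (17 and 1), 163257401 (24 and 3) and 163261201 (15 and 1). Their offsets were 0, 47.5, 46, -13.5, 43 and 12 bp in the same order. Weaker enriched regions lay in between, from 163253801 to 163254200 and from 163260201 to 163260600, with 10 ChIP tags each and offsets of 6.5 and 19 bp. Every enriched region of this stretch therefore had an offset under 50 bp. In the 12 sites of both clusters, 97 top-window tags were plus and 145 minus, a plus share of 40.1% (33.9% to 46.6%), and the tags of a strand spread over a median interquartile range of 59.1 bp, against 92.8 bp outside the clusters.

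Between the blocks the ChIP level was far lower than in them. Outside all enriched regions, the chromosome 2 cluster held 70 ChIP and 72 input tags in 19.3 kb, 1.41 times scaled input (95% exact interval 1.0004 to 1.99). The chromosome 10 cluster held 52 and 59 in 11.1 kb, 1.28 times (0.863 to 1.89). Around the 12 sites, again without enriched regions, the ratio was 1.62 (1.09 to 2.40) from 0.3 to 1 kb from an edge, 1.07 (0.812 to 1.396) from 1 to 2.5 kb, 1.23 (0.976 to 1.55) from 2.5 to 5 kb and 1.23 (1.12 to 1.36) from 10 to 20 kb. Sites of a cluster share parts of these spans, most at the larger distances. Tags in the shared parts were counted more than 1 time, so these intervals are too narrow. Inside the sites the ratios were 16.1 and 16.8, values that the rule had selected. What these blocks are was not tested.

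**Figure D3:**
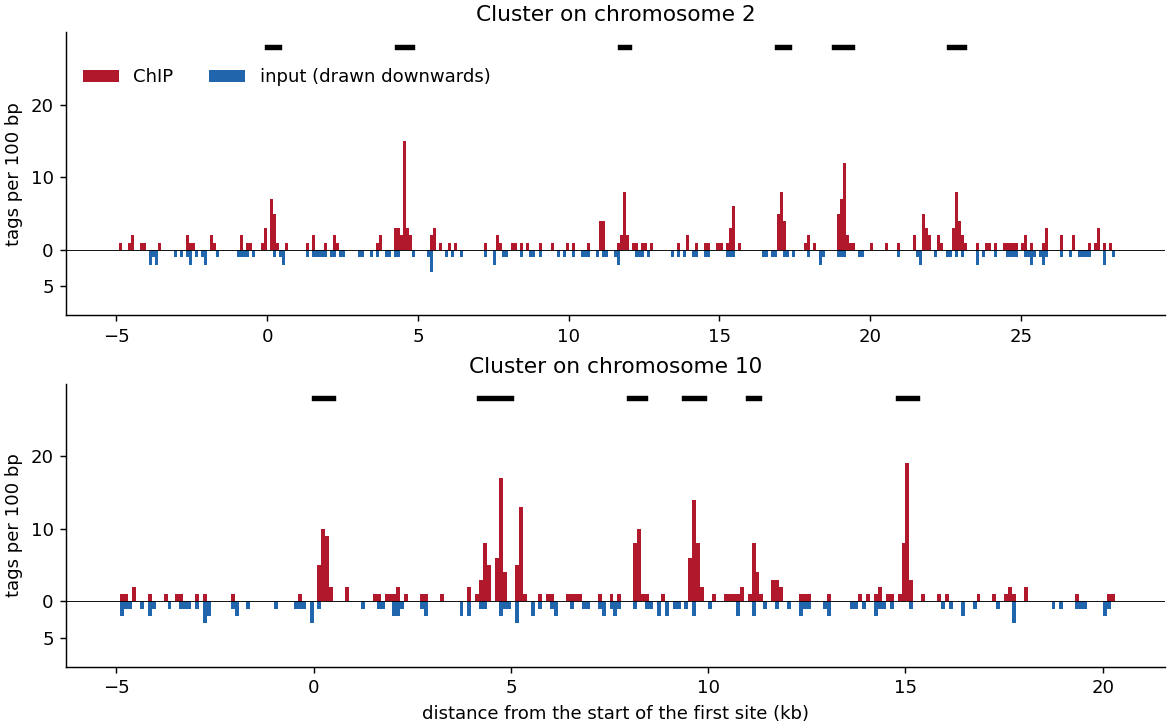
ChIP tags (red, upwards) and input tags (blue, drawn downwards) per 100 bp along the clusters of chromosome 2 (top) and chromosome 10 (bottom), with distance from the start of the first site in kb on the x axis; black bars mark the strong sites. ChIP tags stand in steep blocks of up to 19 tags per 100 bp, and input stays low at the blocks and between them.

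The summed strand profiles of the 2 kinds of site looked different. Read from a running mean over 60 bp in 20 bp steps, plus-strand ends outside the clusters were most frequent 80 bp left of the centre and minus-strand ends 80 bp right of it. In the clusters the same running mean was highest 20 bp left for the plus strand and 40 bp right for the minus strand, and the curves before smoothing, from 12 sites, had several maxima. With tags moved by 62 bp, the profile outside the clusters was 219 bp wide at 0.5 of its height above the surroundings, and with unmoved tags 307 bp. In the clusters moving the tags widened the profile, from 165 bp to 219 bp. In the 65 sites enriched at least 20-fold the moved profile was 204 bp wide, in the 96 sites under 15-fold 240 bp and in the 858 weaker regions 267 bp.

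**Figure D4:**
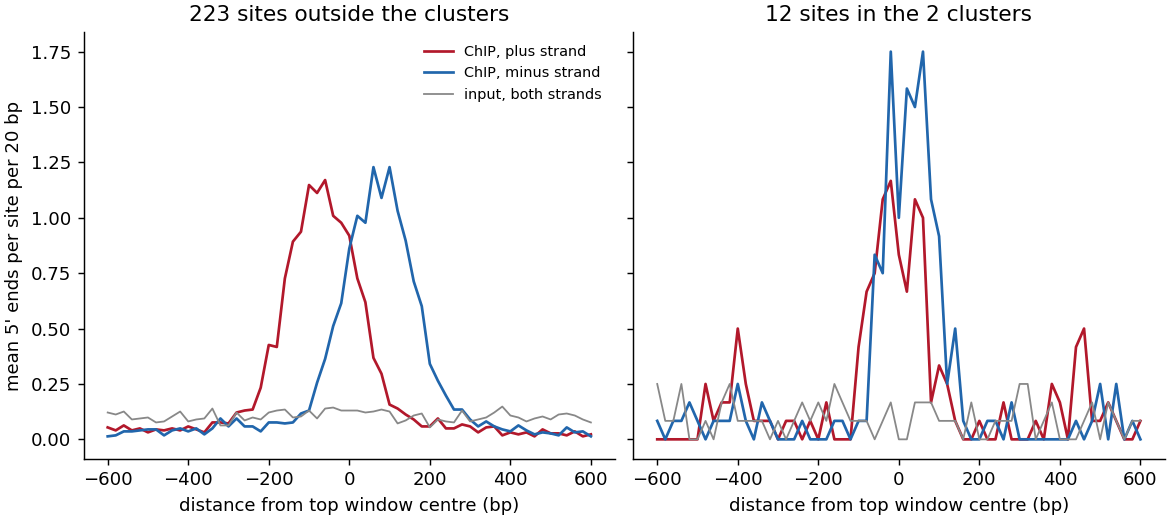
Mean number of unmoved 5′ ends per site per 20 bp (y axis) against distance from the top window's centre in bp (x axis), for ChIP plus-strand (red) and minus-strand (blue) tags and for input on both strands (grey), in the 223 sites outside the clusters (left) and the 12 in them (right). Outside the clusters the strands peak on opposite sides of the centre; in the clusters they overlap.

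Apart from the clusters, most strong sites lay far from each other. Over all 235, the median distance from a site to the next strong site was 2.35 Mb (interquartile range 0.721 to 6.63 Mb). Among the 223 sites outside the clusters it was 2.58 Mb. The most isolated site was 45.2 Mb from its neighbour. Within 50 kb of another strong site lay 20 sites, 12 of them in the clusters. The other 8 formed 4 pairs. Within 200 kb of another site outside the clusters lay 28 sites. Whether these numbers differ from those of scattered positions was not tested. A weaker enriched region lay within 50 kb of 19 of the 235, and the median distance to one was 899 kb.

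The closest pair lay on chromosome 12, where regions from 99699901 to 99700400 and from 99700801 to 99701300 were 400 bp apart. They held 51 ChIP and 5 input tags, and 56 and 2, in their top windows. The 400 bp between them held 6 ChIP tags in all, with a 100 bp bin at 0, against 33 and 28 tags in the fullest bins of the pair. Their offsets of 139.5 and 129 bp were those of single sites, unlike the offsets in the clusters. On chromosome 9, sites beginning at 31725701 (53 ChIP and 2 input tags) and 31752401 (17 and 2) were 26.2 kb apart. On chromosome 18, sites beginning at 35224601 (33 and 5) and 35264001 (21 and 1) were 39.0 kb apart, and on chromosome 14 those at 59911901 (25 and 1) and 59959401 (27 and 1) were 47.1 kb apart. ChIP tags between the members of the last 3 pairs were 0.609 to 0.821 times scaled input, so no raised level joined them.

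Strong sites were found on all 20 chromosomes, with a mean of 0.0972 per covered Mb (95% exact Poisson interval 0.0851 to 0.110). Chromosome 2 carried 22, of which 6 were the cluster, chromosome 4 carried 20 and chromosome 11 carried 17. Chromosome 11 had the highest density, 0.147 per Mb (0.0858 to 0.236), an interval that includes the mean. The intervals of 2 chromosomes lay below the mean, those of chromosome 13 with 4 sites (0.0355 per Mb, 0.00967 to 0.0909) and chromosome X with 5 (0.0370, 0.0120 to 0.0863). X had 0.472 times the autosomes' median ChIP tag density and 0.50 times that of input, and chromosome 13 had 0.993 and 1.06 times; the part of tag density in these values was not tested. Lowering the floor of the local rate to the density of X left its count at 5, but this step could not have changed it. At the floor, the minimum number of ChIP tags was already the stricter limit, and a lower minimum was not run.

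The stretch of chromosome 8 with a raised ChIP to input ratio held strong sites in about its share of the genome. From 53 to 111 Mb the median log2 ratio of 1 Mb bins was 0.41, against -0.17 on the rest of the chromosome. Of the strong sites, 7 lay there (2.98%, exact binomial interval 1.21% to 6.04%), and the stretch makes up 2.40% of the covered genome. Of the 858 weaker regions, 72 did (8.39%, 6.62% to 10.5%); the difference between these shares was not tested. When the input rate inside was multiplied by the ratio of the stretch, which was added after seeing the data, 6 of the 7 remained, and the one lost was that from 100286101 to 100286400 with 22 ChIP and 2 input tags. The sites with most tags in the stretch began at 108856101 (49 ChIP and 3 input tags), 60624901 (47 and 3) and, tied, 77704801 (27 and 1) and 84789001 (27 and 2), with offsets of 174, 122, 113 and 98 bp.

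Close to the sites, ChIP tags dropped to the genome's mean level although input there was above it. From 500 to 2500 bp beyond the edges of the 235 sites there were 3016 ChIP and 4813 input tags. Tested site by site (two-sided exact binomial test against the ratio of totals, Benjamini-Hochberg over the 1093 regions), flanks were higher in ChIP at 7 sites, against 1.56% of all regions, and lower at 1, against 0.732%. The 7 were 5 sites of the clusters and both sites of the chromosome 12 pair, whose flanks contain other strong sites. With all other enriched regions left out of the flanks, an alternative chosen after seeing the data, 0 of the 235 were called by that test. Of the 858 weaker regions, 1 was called. At an unadjusted p under 0.05 the flanks of 2 of the 235 were higher and of 12 lower. Among the 858 weaker regions, 44 were higher and 51 lower, and the difference between the 2 kinds of region was not tested. The site with a lower flank was on chromosome 1 from 12729901, with 4 ChIP and 29 input tags (adjusted p = 0.030, exact binomial test), and it was not called in that alternative.

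Pooled over the 223 sites outside the clusters, the ChIP to input ratio was lowest next to the sites. With enriched regions left out, a measure added after seeing the data, ChIP tags from 0.3 to 1 kb from the edge were at 1.001 times the genome mean (95% exact Poisson interval 0.933 to 1.07) and input at 1.24 times (1.18 to 1.31), a ratio of 0.807 (0.739 to 0.880). From 1 to 2.5 kb the ratio was 0.807 (0.762 to 0.853), from 5 to 10 kb 0.926 (0.899 to 0.955) and from 50 to 100 kb 0.983 (0.974 to 0.993). Input thus fell with distance, to 1.12 times the mean, and ChIP rose, to 1.10 times. Leaving out enriched regions removes ChIP tags and so lowers the ratio; with them kept, it was 0.846 (0.806 to 0.887) from 500 to 2500 bp. Input within 10 kb entered the rule through the local rate. Around the weaker regions the ratio was 0.938 (0.902 to 0.977) from 0.3 to 1 kb and 1.01 from 50 to 100 kb, and the difference between the 2 kinds of region was not tested. The regions were chosen from the same libraries, tags of 1 region are not replicates, and the intervals cover counting error only. Spans around neighbouring regions can overlap, so a tag can be counted more than 1 time.

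**Figure D5:**
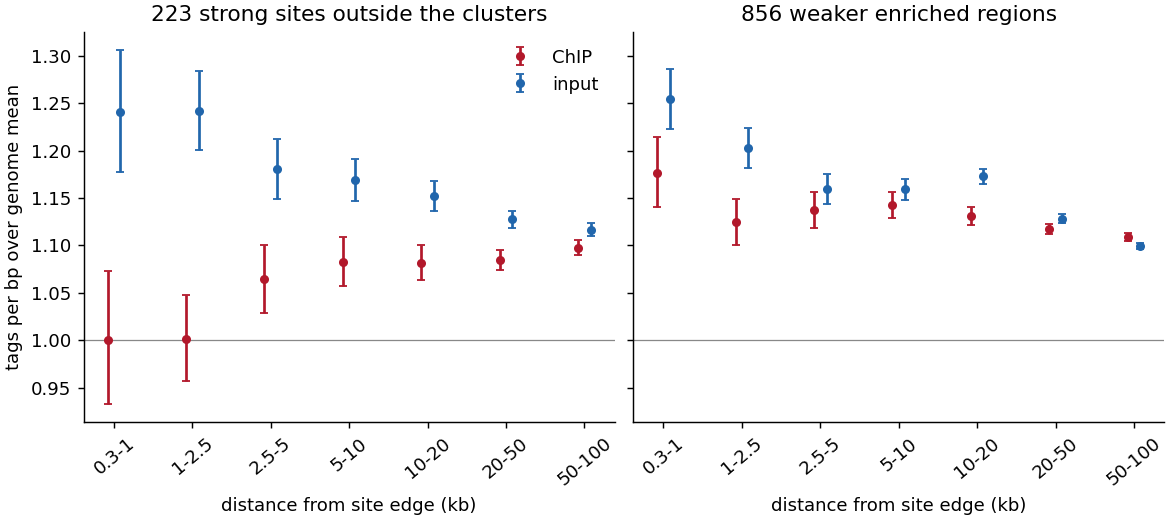
Tags per bp relative to the genome mean (y axis) by distance from the edge of a site in kb (x axis), for ChIP (red) and input (blue) with 95% exact Poisson intervals, around 223 strong sites outside the clusters (left) and 856 weaker enriched regions outside them (right), with all enriched regions left out. Next to strong sites input stands at 1.24 and ChIP at the genome mean, and both approach 1.1 from 50 to 100 kb.

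The wider neighbourhoods were richer in input than most of the genome. In 100 kb centred on a site, input tags were at a median of 1.17 times the genome mean (interquartile range 0.995 to 1.30), against 0.933 (0.766 to 1.13) over 25517 blocks of 100 kb. It was 1.15 around the weaker regions. Every block with at least 1 input tag was counted, and the length of sequence that tags could map to was not taken into account. None of the 235 top windows contained a repeated input tag, against 7 of those of the 858 weaker regions, and this difference was not tested. Since ChIP tags had been collapsed to 1 per position and strand, a window of 300 bp can hold 600 at most. The fullest window had 13.2% of those positions occupied and the median window 3.33%.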

How the data were processed

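The authors deposited 1 list of mapped tags per library, with no other per-feature values; the submitters' processing notes name build mm8, while aligner and filters were not given in the sources used here. The deposited ChIP list gives each position and strand at most 1 time; input repeats were collapsed likewise. Tags were moved 62 bp towards their 3′ end and counted in windows of 300 bp every 100 bp. Input was scaled by 0.689, the ratio of totals, and local spans were widened by 100 bp. The rule needed 11 ChIP tags, under 10 input tags and 12 times the local rate. Sites named are the 24 of most tags, the 5 on each side of the rule, sites within 50 kb of another, those of extreme offset and those in the chromosome 8 stretch. Members, lists and tests were chosen with earlier results of these data known. The rule and tests were tested on simulated data. Intervals are 95%. Those from tags cover counting error only, since PCR tags are not independent molecules. Those of offset medians and of shares of sites treat sites as independent draws. Motif and start-site analyses were not run. Python 3.11.15, NumPy 2.4.6 and SciPy 1.17.1 were used.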

Additional observations from a re-analysis of the deposited data

How the results depend on the processing

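The number of sites, 235, stayed within 1.5 times under 11 of 15 alternatives. It was 67 with windows of 600 bp, 141 at 15 times the local rate, 371 with a local rate from 10 kb and the genome-wide rate, and 705 with the genome-wide rate alone, which are larger windows, a stricter threshold or a lower rate by construction. Windows of 600 bp overlapped 68 of the 235, unmoved tags 187, and thinned input 204. A limit of under 5 input tags lost 3 sites, beginning at 47618201 on chromosome 18, 20448701 on chromosome 16 and 108716401 on chromosome 8. All deposited tags kept gave 271 sites, because the input scale then falls with the input repeats. At 600 bp all 24 sites of most tags had lower enrichments (9.94 to 37.6), and at 200 bp all 24 had higher ones (21.1 to 72.5). Enrichments left their counting intervals in 8 of the 24 with a local rate from 10 kb and in 20 with the genome-wide rate alone. The profile width of 219 bp was 295 bp with tags not moved. Sites within 50 kb of another numbered 20, 40 within 200 kb, and 8 without the 2 clusters. Flank calls rose from 8 to 11 with flanks of 1 to 5 kb. They fell to 3 without the clusters and to 0 with other enriched regions left out of the flanks. The enrichment on the strand not used, 8.59, was 8.94 with minus-strand tags choosing and plus-strand tags read, just above its interval. The offset stayed within its interval under the alternatives run, and strand balance gave 0 calls in each. For the density of X only a lower floor was run, which could not change the count. Motif alternatives were not run. No paired analysis was possible because each group has 1 library. Counts of 11 to 30 tags set wide intervals for most sites.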
